A study of Mus musculus with 8 samples.

Results

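The 39 genes described here encode enzymes of amino acid catabolism in the liver, taken from a named list and grouped by the amino acid they act on. All 39 symbols are among the 25229 genes of the deposited count tables, and all 39 passed the filter on low counts that left 14728 genes. Their RNA was measured by bulk RNA sequencing of liver cells from 8 C57BL/6 mice. All of these mice lacked Ifih1, which encodes the double-stranded RNA sensor MDA5. All also carried Alb-Cre, a recombinase driven by the albumin promoter, which is active in hepatocytes. The groups differ in Adar1, which encodes an adenosine deaminase that edits double-stranded RNA: Ifih1-/- Adar1flox/flox Alb-Cre+ (flox/flox, 3 mice), Ifih1-/- Adar1wt/flox Alb-Cre+ (wt/flox, 2 mice) and Ifih1-/- Adar1wt/wt Alb-Cre+ (wt/wt, 3 mice). The mice of replicate 1, 2 and 3 were 11, 9 and 7 weeks old in every group that has that number. The design text counts 2 flox/flox mice where 3 samples carry that genotype, and all 3 were used.

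Hepatocytes are the main site at which surplus amino acids are broken down. Aminotransferases move the amino group onto a keto acid, dehydratases, lyases and the glycine cleavage system release it as ammonia for the urea cycle, and the carbon skeletons enter gluconeogenesis, ketogenesis or the citric acid cycle. The tyrosine and tryptophan routes, histidine breakdown and methionine metabolism are concentrated in the liver and kidney, and several of their enzymes respond to glucagon, glucocorticoids and feeding. Inherited loss of such enzymes causes tyrosinaemia (FAH), nonketotic hyperglycinaemia (GLDC and AMT), hyperlysinaemia (AASS), homocystinuria (CBS) and maple syrup urine disease (BCKDHA, BCKDHB and DBT) in humans.

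The libraries held 75875711 to 132303735 sense gene reads, and levels are given in CPM, sense counts scaled to a common library size with TMM factors. Adar reads were present in every library, at 49.4, 35.9 and 42.1 CPM in the flox/flox libraries, 22.0 and 31.8 CPM in wt/flox and 28.1, 30.0 and 53.6 CPM in wt/wt, and Adar was not called in any contrast (log2 fold change 0.15 ± 0.27 SE, adjusted p = 0.693 by edgeR in flox/flox against wt/wt). The counts are for the gene in full, with none for the floxed exons alone, so excision was not checked. Ifih1 had 0 to 4 reads per library. Xist and Y-linked transcripts contradicted the labelled sex in flox/flox replicates 1 and 2, so the sex term of the fit was taken from the transcripts. The names of the deposited wt/wt tables lack the mark of a second batch that all others carry, so genotype and batch cannot be told apart in either contrast with wt/wt, whereas flox/flox against wt/flox lies within a single batch mark. The 9 hepatocyte markers had reads in every library, with a summed level of 155431 to 237767 CPM in flox/flox, 147382 to 161297 CPM in wt/flox and 97423 to 115653 CPM in wt/wt.

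The first question is how hepatocytes with both Adar1 alleles floxed differ from those with none, on the Ifih1-null background. Among the 39 catabolic genes, 2 rose in flox/flox (Aass of lysine and Prodh2 of hydroxyproline breakdown) and 11 fell (Hpd, Gstz1 and Fah of the tyrosine route, Haao of the tryptophan route, Amt, Gcsh, Sdsl and Shmt2 of glycine and serine, Gnmt and Cdo1 of sulfur amino acids, and the aminotransferase gene Got2). All calls are by edgeR's quasi-likelihood test at a Benjamini-Hochberg adjusted p under 0.05 over the 14728 genes. Over all genes tested 14.5% were called higher and 14.6% lower, and among the 39 genes the shares were 5.13% and 28.2%, a difference that was not tested. The median log2 fold change of the 39 genes was -0.19, against 0.01 over all genes, and 25 of the 39 values were below 0. No called gene changed by more than 1.83-fold, and the largest rise was 1.73-fold. The flox/flox libraries lay wholly above the wt/wt libraries for 4 of the 39 genes and wholly below for 15, against 23.0% and 22.0% of all genes tested.

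These counts rest on few libraries. Leaving out 1 library at a time gave 0 or 1 higher and 2 to 10 lower calls. With flox/flox replicate 1 left out the lower calls numbered 2, with wt/wt replicate 2 left out 4, with wt/wt replicate 1 left out 5, and with replicate 3 of either of these groups left out 7. With the labelled sex in the fit Hpd, Fah and Got2 were not called, with no filter on low counts Fah and Got2 were not, and with RLE or upper-quartile factors or the 2 groups alone Prodh2 was not. With a block for the replicate number and the sex term in the fit, Gcsh and Hpd alone were called. No gene of the list was called without both libraries of contradicted sex. Scaling by library size alone, which shifts the median log2 fold change of all genes to -0.32, gave 0 higher and 20 lower calls.

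Markers of other cells were looked up in the same contrast. Of 12 sinusoidal endothelial markers, none was at 0 in any library and 10 were called lower, with a summed level of 85.6 to 179.5 CPM in flox/flox, 98.3 to 112.3 CPM in wt/flox and 196.2 to 313.2 CPM in wt/wt. Of 12 Kupffer cell and macrophage markers, likewise with reads in every library, 2 were called lower, with 38.5 to 132.0 CPM in flox/flox, 38.6 to 40.6 CPM in wt/flox and 69.6 to 290.5 CPM in wt/wt. The highest of these wt/wt sums was that of replicate 3, and the other 2 were 70.6 and 69.6 CPM. Of 6 tested cholangiocyte markers 1 was called higher, and the list of 8 summed to 72.9 to 136.7 CPM in flox/flox, 47.7 to 82.4 CPM in wt/flox and 51.8 to 62.9 CPM in wt/wt, with Krt19, Krt7 and Epcam at 0 in at least 1 library. Of 8 stellate cell markers 1 was called lower, with sums of 37.2 to 76.8 CPM in flox/flox, 27.6 to 37.0 CPM in wt/flox and 25.2 to 54.1 CPM in wt/wt. Of 5 tested blood cell markers 2 were called lower, and the list of 8, with Cd79a, Hba-a1 and Hbb-bs at 0 in at least 1 library, summed to 2.63 to 6.46 CPM in flox/flox, 2.40 to 3.29 CPM in wt/flox and 2.61 to 19.2 CPM in wt/wt. Over all genes 14.5% were called higher and 14.6% lower. Shares near these were found for the Kupffer cell and macrophage list (16.67% lower), the stellate list (12.5% lower) and the cholangiocyte list (16.67% higher). The sinusoidal endothelial list had 83.3% lower and the blood cell list 40% lower. Of the 9 hepatocyte markers 3 were called higher. Of 11 periportal markers 4 were called higher and 1 lower, and of 10 pericentral markers 3 were called higher and 2 lower. The part of the marked cells in the levels of the catabolic genes was not tested. In bulk samples fewer cells of a type and less RNA per cell cannot be told apart.

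**Figure D1:**
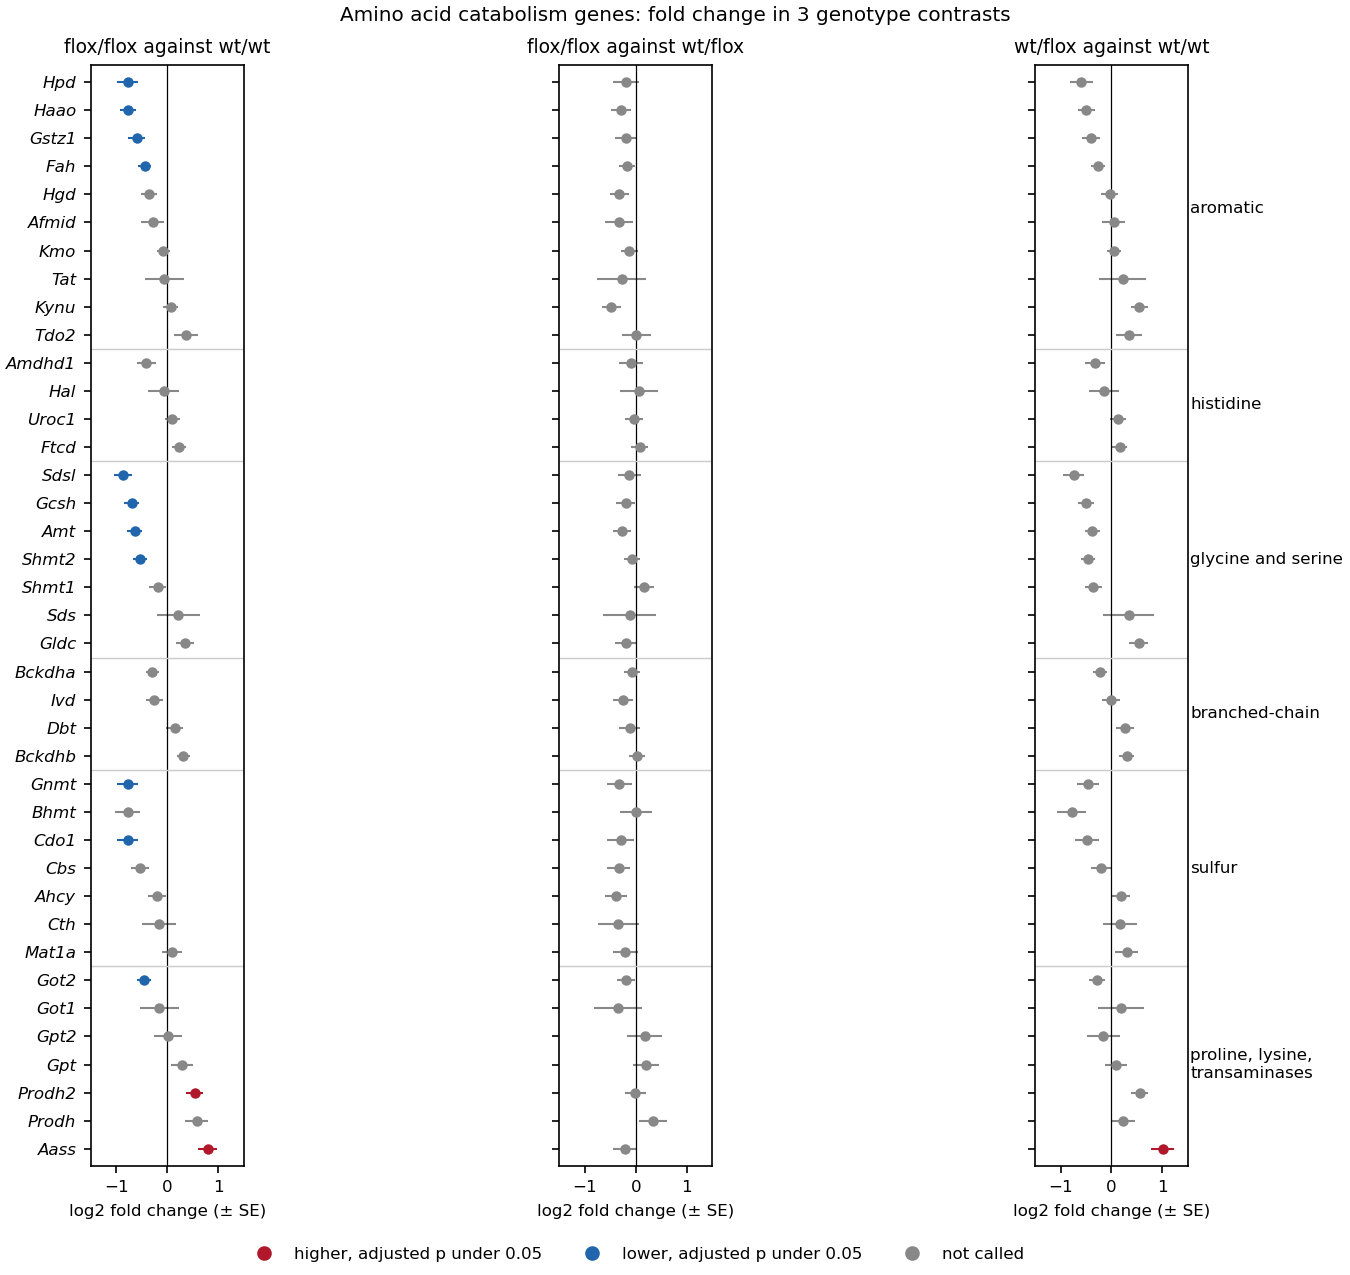
Log2 fold change of each of the 39 genes in flox/flox against wt/wt, flox/flox against wt/flox and wt/flox against wt/wt, with bars of ± 1 SE, ordered within each amino acid group by the first contrast. Red and blue points passed an edgeR adjusted p under 0.05: 2 higher and 11 lower in the first panel, none in the second, and Aass alone in the third.

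Promoter sequences were looked up for the 39 genes in RefSeq (GRCm38.p6), and 31 had a window of 250 bases before to 50 after the start. Cdo1, Sds, Kynu, Gpt, Cth, Sdsl, Dbt and Mat1a had no window in that table. The 250 bases before the start are shown for the 2 genes that rose (Aass and Prodh2) and for 2 of those that fell (Gnmt and Gstz1), because the CCAAT box was the searched pattern that differed most in share between the catabolic genes and all genes. Each is written 5′ to 3′ on the gene's own strand, and capitals mark CCAAT or its reverse complement ATTGG.
Aass (chr6:23132987-23133236, minus strand): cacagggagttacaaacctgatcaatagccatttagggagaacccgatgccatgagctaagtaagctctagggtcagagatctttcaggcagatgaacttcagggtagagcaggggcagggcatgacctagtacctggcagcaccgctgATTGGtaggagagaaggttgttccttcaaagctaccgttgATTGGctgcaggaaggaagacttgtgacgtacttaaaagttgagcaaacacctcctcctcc
Prodh2 (chr7:30493408-30493657, plus strand): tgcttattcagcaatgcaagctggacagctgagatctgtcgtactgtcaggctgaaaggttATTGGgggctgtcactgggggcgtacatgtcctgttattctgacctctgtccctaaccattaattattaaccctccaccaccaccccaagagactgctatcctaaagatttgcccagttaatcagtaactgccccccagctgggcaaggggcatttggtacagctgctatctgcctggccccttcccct
Gnmt (chr17:46729166-46729415, minus strand): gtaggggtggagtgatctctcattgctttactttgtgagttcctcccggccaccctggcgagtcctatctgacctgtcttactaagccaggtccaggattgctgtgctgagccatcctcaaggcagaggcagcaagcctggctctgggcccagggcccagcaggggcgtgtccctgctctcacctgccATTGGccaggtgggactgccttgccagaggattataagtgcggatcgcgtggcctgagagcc
Gstz1 (chr12:87146915-87147164, plus strand): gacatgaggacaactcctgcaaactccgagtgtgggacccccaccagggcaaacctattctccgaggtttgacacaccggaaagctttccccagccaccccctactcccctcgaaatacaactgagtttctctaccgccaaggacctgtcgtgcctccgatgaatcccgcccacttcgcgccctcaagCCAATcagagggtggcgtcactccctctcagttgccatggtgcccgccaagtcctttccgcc
Counted from the start, with -1 as the last base shown, the CCAAT box begins at -101 and -61 in Aass, at -189 in Prodh2, and at -62 in both Gnmt and Gstz1. Of the genes with a window, both that rose held CCAAT, as did 4 of the 9 that fell (Amt, Gcsh, Gnmt and Gstz1), while Hpd, Fah, Haao, Got2 and Shmt2 held none. CCAAT on either strand was found in 19 of the 31 windows (61.3%), against 37.9% of 27025 promoter windows of the same length. These 27025 windows were not limited to genes that passed the filter on low counts. The GC box GGGCGG was in 14 (45.2%), against 36%, and the pattern TTGCNNAA of C/EBP factors in Aass, Prodh2, Hal and Hgd (12.9%), against 10.7%. TATAAA on the gene's strand was in Ftcd and Tdo2 (6.45%, against 8.93%) and the E-box CACGTG in Cbs (3.23%, against 7.18%). The cyclic AMP response element TGACGTCA (1.85% of all windows) and the HNF4 pattern CAAAGTCCA (0.474%) were in none of the 31. These are matches of letters in a window and not mapped binding sites.

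In the tyrosine route, 3 of 5 genes fell in flox/flox, all acting after the first step. Tat, the tyrosine aminotransferase that starts the route, had 2817, 1752 and 1282 CPM in the flox/flox libraries, 3494 and 1654 CPM in wt/flox and 1449.8, 2258 and 2489.6 CPM in wt/wt, with overlap of all groups (log2 fold change -0.06 ± 0.39 SE, adjusted p = 0.925 by edgeR). Hpd, the dioxygenase that makes homogentisate (chromosome 5, 123171807 to 123182727, minus strand, GRCm38), had 636, 869 and 775 CPM in the flox/flox libraries, 928 and 578 CPM in wt/flox and 1194, 1117 and 1334 CPM in wt/wt. Every flox/flox and wt/flox library was below every wt/wt library, and wt/flox replicate 2 was the lowest of the 8. Hpd fell to 759.8 ± 117 CPM in flox/flox (SD, n = 3) against 1215 ± 109.7 CPM in wt/wt (n = 3), a fitted change of 1.72-fold (log2 fold change -0.78 ± 0.20 SE, adjusted p = 0.026 by edgeR).

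Gstz1, the maleylacetoacetate isomerase (chromosome 12, 87147165 to 87164723, plus strand), had 256, 320.1 and 305 CPM in the flox/flox libraries, 371 and 302 CPM in wt/flox and 472, 475 and 389 CPM in wt/wt. All flox/flox and wt/flox libraries were again below all wt/wt libraries (log2 fold change -0.60 ± 0.17 SE, adjusted p = 0.0345 by edgeR). Fah, the fumarylacetoacetase that ends the route (chromosome 7, 84585159 to 84606722, minus strand), had 265, 281 and 298 CPM in the flox/flox libraries, 341 and 280.0 CPM in wt/flox and 379, 381 and 372 CPM in wt/wt. The wt/wt libraries were close to each other and above the rest (log2 fold change -0.44 ± 0.13 SE, adjusted p = 0.0382 by edgeR). Hgd, the homogentisate dioxygenase between Hpd and Gstz1, had 348, 383 and 370.0 CPM in the flox/flox libraries, 523 and 390.4 CPM in wt/flox and 497, 462 and 447 CPM in wt/wt. Its flox/flox libraries were below all others, but it was not called (log2 fold change -0.36 ± 0.15 SE, adjusted p = 0.117 by edgeR).

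Within the tyrosine route the calls of Hpd, Gstz1 and Fah depend on single libraries. Hpd was not called without flox/flox replicate 1 or 3 or any of the wt/wt replicates (adjusted p over the 8 fits 0.0157 to 0.128). Gstz1 was not called without flox/flox replicate 1 or 3 or wt/wt replicate 1 or 2 (0.027 to 0.242), nor Fah without flox/flox replicate 1 or 2 or any wt/wt replicate (0.0449 to 0.189). With the trend of fold change on exon length removed, Gstz1 was still called (adjusted p = 0.0309), and Hpd and Fah were not (adjusted p = 0.0859 and 0.238). Part of the Gstz1 transcript is shared with the overlapping gene Pomt2, so its count is less certain.

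In the tryptophan route 1 of 5 genes fell, Haao, the hydroxyanthranilate dioxygenase on the way to quinolinate and NAD (chromosome 17, 83831156 to 83847963, minus strand). Haao had 179, 213 and 201 CPM in the flox/flox libraries, 266 and 232 CPM in wt/flox and 361, 382 and 292 CPM in wt/wt. The 3 groups did not overlap, with flox/flox lowest and wt/wt highest. Haao fell to 198 ± 17.0 CPM in flox/flox (SD, n = 3) against 345 ± 47.1 CPM in wt/wt (n = 3) (log2 fold change -0.77 ± 0.16 SE, adjusted p = 0.0123 by edgeR), and it kept its call with the exon-length trend removed (adjusted p = 0.0157) but not without flox/flox replicate 1 (adjusted p over the 8 leave-one-out fits 0.0183 to 0.0842).

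Kynu, the kynureninase that acts just before Haao, had 255, 215 and 177 CPM in the flox/flox libraries, 314 and 331 CPM in wt/flox and 223, 197 and 217 CPM in wt/wt. Both wt/flox libraries were above all others, and the flox/flox and wt/wt libraries overlapped (log2 fold change 0.07 ± 0.15 SE, adjusted p = 0.757 by edgeR for flox/flox against wt/wt). Tdo2, the dioxygenase that opens the route, had 1636, 909 and 913 CPM in the flox/flox libraries, 1918 and 1141 CPM in wt/flox and 1356, 977 and 773 CPM in wt/wt, with overlap of all groups (log2 fold change 0.36 ± 0.23 SE, adjusted p = 0.27 by edgeR). Kmo, the kynurenine monooxygenase, and Afmid, the kynurenine formamidase, also overlapped between groups, at means of 222 and 75.7 CPM in flox/flox against 254 and 88.3 CPM in wt/wt. The Afmid count is uncertain because its exons are shared with the overlapping gene Gm20708.

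None of the 4 histidine genes was called by edgeR with TMM factors, limma-voom or DESeq2 with all libraries, and none had an unadjusted edgeR p under 0.05. Amdhd1, the imidazolonepropionase, had the smallest p of the group, with 134, 187 and 199 CPM in the flox/flox libraries, 179 and 166 CPM in wt/flox and 246, 222 and 197 CPM in wt/wt. Flox/flox replicate 3 lay just above wt/wt replicate 3, so the groups overlapped (log2 fold change -0.42 ± 0.19 SE, adjusted p = 0.131 by edgeR). Amdhd1 was called lower with library size alone and, together with Hal, without wt/wt replicate 3. Ftcd, which passes the formimino group to folate, had 389, 395 and 358 CPM in the flox/flox libraries, 402 and 411 CPM in wt/flox and 382, 378 and 278 CPM in wt/wt. Flox/flox replicate 3 was within the wt/wt range and both wt/flox libraries were above the other 6 (log2 fold change 0.24 ± 0.14 SE, adjusted p = 0.222 by edgeR).

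Hal, the histidine ammonia-lyase that opens the route, had 351, 690.4 and 758 CPM in the flox/flox libraries, 450.4 and 489.6 CPM in wt/flox and 637, 552 and 475 CPM in wt/wt. It showed the widest difference between flox/flox mice of the group, with replicate 1 below all other libraries and replicates 2 and 3 above them. Uroc1, the urocanate hydratase, showed the same order, with 475 CPM in flox/flox replicate 1, 677 and 631 CPM in replicates 2 and 3, and 516 to 523 CPM in wt/wt.

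Among the 7 glycine and serine genes 4 fell and none rose. The glycine cleavage system is a mitochondrial complex, and 2 of its 3 measured subunits fell. Gcsh, the lipoyl-carrying H protein (chromosome 8, 116981810 to 116993537, minus strand), had 42.3, 57.9 and 44.4 CPM in the flox/flox libraries, 54.6 and 49.8 CPM in wt/flox and 73.9, 78.8 and 74.7 CPM in wt/wt, and all 5 libraries with a floxed allele were below the wt/wt libraries (log2 fold change -0.70 ± 0.15 SE, adjusted p = 0.0134 by edgeR). Amt, the aminomethyltransferase (chromosome 9, 108296853 to 108302302, plus strand), had 35.7, 50.9 and 45.5 CPM in the flox/flox libraries, 51.0 and 44.2 CPM in wt/flox and 60.7, 68.5 and 65.1 CPM in wt/wt, again without overlap (log2 fold change -0.64 ± 0.14 SE, adjusted p = 0.0166 by edgeR). Gldc, the decarboxylase of the same complex, differed in direction from both: it had 296, 379 and 266 CPM in the flox/flox libraries, 339.8 and 374 CPM in wt/flox and 227, 278 and 236 CPM in wt/wt, and was not called (log2 fold change 0.34 ± 0.18 SE, adjusted p = 0.184 by edgeR). Its flox/flox and wt/wt libraries overlapped, and both wt/flox libraries were above all wt/wt libraries.

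Shmt2, the mitochondrial serine hydroxymethyltransferase (chromosome 10, 127517123 to 127522444, minus strand), had 113, 125 and 106 CPM in the flox/flox libraries, 133 and 119.7 CPM in wt/flox and 178, 181 and 152 CPM in wt/wt. All libraries with a floxed allele were below all wt/wt libraries (log2 fold change -0.54 ± 0.13 SE, adjusted p = 0.0211 by edgeR). Its cytosolic counterpart Shmt1 averaged 139.9 ± 33.4 CPM in flox/flox (SD, n = 3) against 145 ± 9.28 CPM in wt/wt (n = 3), with overlap (log2 fold change -0.19 ± 0.16 SE, adjusted p = 0.4 by edgeR). Reads of Shmt1 are uncertain at its overlap with Smcr8.

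Sdsl, a serine dehydratase-like gene with the lowest level per kilobase of the 39 (chromosome 5, 120458186 to 120472810, minus strand), had 8.06, 4.84 and 4.29 CPM in the flox/flox libraries, 8.89 and 6.70 CPM in wt/flox and 11.4, 13.1 and 10.1 CPM in wt/wt, from at least 472 reads per library. The 3 flox/flox libraries were below the wt/wt libraries, and flox/flox replicate 1 was between the wt/flox libraries. Sdsl showed the largest fall of the list, to 5.73 ± 2.04 CPM in flox/flox (SD, n = 3) against 11.5 ± 1.49 CPM in wt/wt (n = 3), a fitted 1.83-fold (log2 fold change -0.87 ± 0.18 SE, adjusted p = 0.013 by edgeR). Sds, the serine dehydratase itself, had 372, 140.3 and 161 CPM in the flox/flox libraries, 372 and 186 CPM in wt/flox and 205, 138 and 243 CPM in wt/wt. Replicate 1 of flox/flox and of wt/flox stood apart from the other 6 libraries, and the groups overlapped (log2 fold change 0.22 ± 0.42 SE, adjusted p = 0.72 by edgeR). The Sds count shares a stretch of exon with Plbd2.

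Without flox/flox replicate 1 the calls of Gcsh, Amt and Shmt2 were lost, without wt/wt replicate 1 or 2 also that of Shmt2, and without wt/wt replicate 3 that of Sdsl. Over the leave-one-out fits the adjusted p was 0.0101 to 0.0913 for Gcsh, 0.02 to 0.116 for Amt, 0.0183 to 0.141 for Shmt2 and 0.0198 to 0.118 for Sdsl. With the exon-length trend removed none of the 4 was called, at adjusted p = 0.127 for Gcsh, 0.0532 for Amt, 0.0627 for Shmt2 and 0.104 for Sdsl.

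With TMM factors, genotype and sex in the fit and no correction for length, edgeR called none of the 4 branched-chain genes, and neither did limma-voom or DESeq2. Scaled by library size alone, Bckdha and Ivd were called lower. Bckdhb, the beta subunit of the decarboxylase of the branched-chain ketoacid dehydrogenase, had 57.0, 63.1 and 69.7 CPM in the flox/flox libraries, 61.5 and 50.7 CPM in wt/flox and 48.7, 42.5 and 53.8 CPM in wt/wt. Its flox/flox libraries were all above the wt/wt libraries, with the only unadjusted p under 0.05 of the group (log2 fold change 0.31 ± 0.13 SE, adjusted p = 0.0992 by edgeR). With the exon-length trend removed Bckdhb was called higher (log2 fold change 0.62, adjusted p = 0.0188). Bckdha, the alpha subunit of the same enzyme, had 113, 109.9 and 109.7 CPM in the flox/flox libraries, 141 and 113 CPM in wt/flox and 153, 153 and 122 CPM in wt/wt, and its flox/flox libraries were all below the wt/wt libraries (log2 fold change -0.30 ± 0.13 SE, adjusted p = 0.131 by edgeR).

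Dbt, the transacylase core of that complex, averaged 103 ± 6.74 CPM in flox/flox (SD, n = 3) against 93.7 ± 7.65 CPM in wt/wt (n = 3), and Ivd, the isovaleryl-CoA dehydrogenase of leucine breakdown, averaged 127 ± 9.36 CPM in flox/flox (SD, n = 3) against 154 ± 17.2 CPM in wt/wt (n = 3). Both overlapped between the groups. Bckdha shares exon sequence with the overlapping gene B3gnt8 and its count is uncertain.

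Among the 7 sulfur amino acid genes 2 fell and none rose. Gnmt, the glycine N-methyltransferase that consumes surplus S-adenosylmethionine (chromosome 17, 46725664 to 46729168, minus strand), had 606, 635 and 654 CPM in the flox/flox libraries, 996 and 654 CPM in wt/flox and 1263, 1104 and 975 CPM in wt/wt. The flox/flox libraries were below all others, and wt/flox replicate 1 was within the wt/wt range. Gnmt fell to 632 ± 24.1 CPM in flox/flox (SD, n = 3) against 1114 ± 144 CPM in wt/wt (n = 3) (log2 fold change -0.78 ± 0.20 SE, adjusted p = 0.0255 by edgeR). Cdo1, the cysteine dioxygenase on the way to taurine, had 615, 644 and 616 CPM in the flox/flox libraries, 853 and 569 CPM in wt/flox and 799.5, 1117 and 1186 CPM in wt/wt. The flox/flox libraries were close to each other, below all wt/wt libraries and between the wt/flox libraries (log2 fold change -0.78 ± 0.21 SE, adjusted p = 0.0299 by edgeR).

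Bhmt, which remethylates homocysteine with betaine, had 2616, 1668 and 2433 CPM in the flox/flox libraries, 2569.9 and 1818 CPM in wt/flox and 3345, 3503 and 4599.5 CPM in wt/wt. All libraries with a floxed allele were below all wt/wt libraries, and the adjusted p was just outside the threshold (log2 fold change -0.78 ± 0.25 SE, adjusted p = 0.0519 by edgeR). DESeq2 called Bhmt lower, as it did Cbs. Near-identical copies (Gm5096 and Bhmt-ps1) make the Bhmt count uncertain, because reads that aligned to several places were set aside, and these made up 3.92% to 4.32% of alignments in flox/flox, 4.89% to 4.98% in wt/flox and 8.97% to 10.9% in wt/wt. Cbs, the first transsulfuration enzyme, had 315, 458 and 341 CPM in the flox/flox libraries, 463 and 399 CPM in wt/flox and 464, 566 and 512 CPM in wt/wt, with the flox/flox libraries just below the wt/wt libraries (log2 fold change -0.53 ± 0.18 SE, adjusted p = 0.0615 by edgeR).

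Cth, the second transsulfuration enzyme, averaged 448 ± 167 CPM in flox/flox (SD, n = 3) against 436 ± 109 CPM in wt/wt (n = 3), and Mat1a, the methionine adenosyltransferase of adult liver, averaged 2476 ± 195 CPM in flox/flox (SD, n = 3) against 2159 ± 673 CPM in wt/wt (n = 3). Ahcy, the adenosylhomocysteinase, averaged 826 ± 107 CPM in flox/flox (SD, n = 3) against 970.0 ± 98.7 CPM in wt/wt (n = 3), and its near-copies Gm4737 and Gm9826 make its count uncertain. All 3 overlapped between the groups.

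The calls of Gnmt and Cdo1 depend on single libraries and on length. Gnmt was not called without flox/flox replicate 1 or any wt/wt replicate (adjusted p over the leave-one-out fits 0.02 to 0.153), and Cdo1 not without any flox/flox replicate or wt/wt replicate 2 or 3 (0.0272 to 0.182). With the exon-length trend removed the adjusted p was 0.195 for Gnmt and 0.169 for Cdo1.

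Lysine breakdown held the clearest rise. Aass, the bifunctional enzyme that catalyses the opening steps of lysine breakdown through saccharopine in mitochondria (chromosome 6, 23072173 to 23132986, minus strand), had 717, 477 and 478 CPM in the flox/flox libraries, 744 and 645 CPM in wt/flox and 327, 296 and 367 CPM in wt/wt. All 5 libraries with a floxed allele were above the wt/wt libraries, and those of replicate 1 in flox/flox and wt/flox were the highest. Aass rose to 558 ± 138 CPM in flox/flox (SD, n = 3) against 330.3 ± 35.6 CPM in wt/wt (n = 3), a fitted 1.73-fold (log2 fold change 0.79 ± 0.19 SE, adjusted p = 0.0207 by edgeR). The call was kept with the exon-length trend removed (adjusted p = 0.0268) and lost without flox/flox replicate 1 or wt/wt replicate 1 or 2 (adjusted p over the leave-one-out fits 0.016 to 0.19).

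Of the proline genes, Prodh2, the hydroxyproline dehydrogenase (chromosome 7, 30493622 to 30513402, plus strand), had 149, 262 and 218 CPM in the flox/flox libraries, 172 and 172 CPM in wt/flox and 132, 117 and 135 CPM in wt/wt. Flox/flox replicate 1 was below both wt/flox libraries and above all wt/wt libraries, and the wt/flox libraries were nearly equal. Prodh2 rose 1.46-fold (log2 fold change 0.54 ± 0.17 SE, adjusted p = 0.0457 by edgeR), a call that was lost without flox/flox replicate 2 or 3, either wt/flox replicate or wt/wt replicate 2 or 3 (adjusted p 0.0394 to 0.342). Prodh, the proline dehydrogenase, had 174, 186 and 284 CPM in the flox/flox libraries, 169.5 and 135 CPM in wt/flox and 153, 119 and 135 CPM in wt/wt. Its flox/flox libraries were above all others (log2 fold change 0.58 ± 0.22 SE, adjusted p = 0.0884 by edgeR).

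Among the aminotransferases, Got2, the mitochondrial aspartate aminotransferase (chromosome 8, 95864134 to 95888547, minus strand), had 307, 309.6 and 279.8 CPM in the flox/flox libraries, 408 and 327 CPM in wt/flox and 441, 475 and 375 CPM in wt/wt. The flox/flox libraries were below all others (log2 fold change -0.46 ± 0.14 SE, adjusted p = 0.0452 by edgeR). Of the 8 fits that leave out a library, this call remained in the fit without flox/flox replicate 2 and was lost in the other 7 (adjusted p 0.0498 to 0.228). Copies of Got2 (Gm10874, Gm45760 and Got2-ps1) make its count uncertain. The cytosolic Got1 and the alanine aminotransferases Gpt and Gpt2 overlapped between the groups, at log2 fold changes of -0.16, 0.29 and 0.01.

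**Figure D2:**
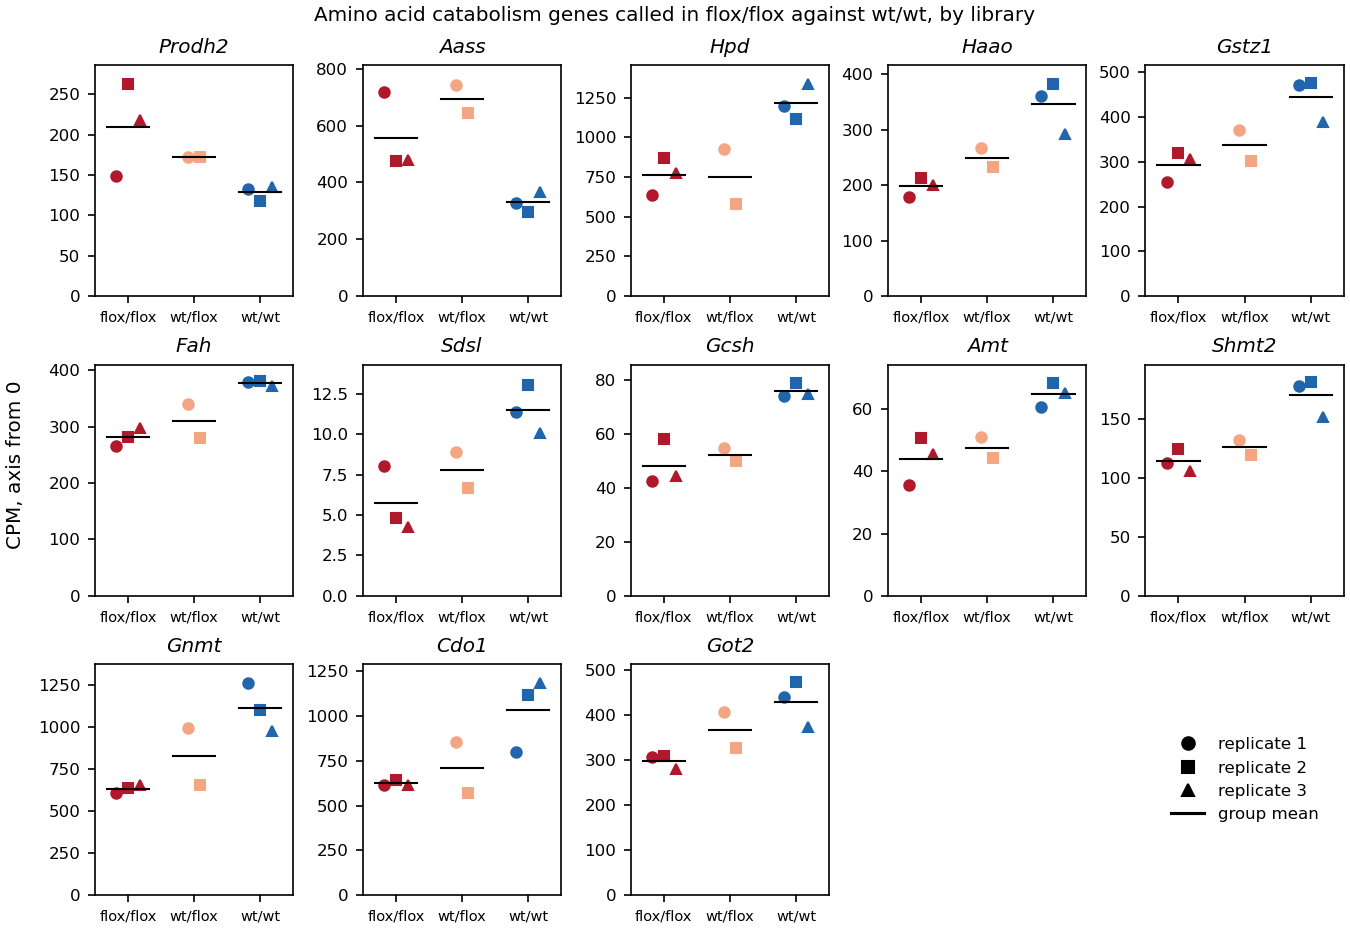
CPM of the 13 called genes in each library, by genotype (flox/flox, wt/flox and wt/wt), with replicates by symbol, a black line at the group mean and axes from 0. Prodh2 and Aass lie higher and the other 11 lower in flox/flox than in wt/wt without overlap of the libraries, and the wt/flox mean lies between the flox/flox and wt/wt means for every gene but Hpd and Aass.

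A further 57 tested genes of the same pathways, outside the 39, gave 3 higher and 20 lower calls in flox/flox against wt/wt (5.26% and 35.1%, against 14.5% and 14.6% of all genes, a difference that was not tested), with a median log2 fold change of -0.31. Of the sulfur list 5 of 9 fell, among them the rhodanese Tst (93.3 ± 16.2 CPM in flox/flox against 194 ± 14.2 CPM in wt/wt (SD, n = 3 each); log2 fold change -1.11, adjusted p = 0.00478), the sulfurtransferase Mpst (log2 fold change -1.08, adjusted p = 0.00586), the methyltransferase Bhmt2 (log2 fold change -0.75, adjusted p = 0.0071) and the persulfide dioxygenase Ethe1 (log2 fold change -0.49, adjusted p = 0.0155). Of 20 further branched-chain genes 7 fell, among them Mcee, the methylmalonyl-CoA epimerase (log2 fold change -1.07, adjusted p = 0.0036), Echs1, the short-chain enoyl-CoA hydratase (log2 fold change -0.65, adjusted p = 0.00907), and Acat1, the acetoacetyl-CoA thiolase (log2 fold change -0.76, adjusted p = 0.00972). Of the same 20, Mmut and Pcca of propionate metabolism rose (log2 fold change 0.48, adjusted p = 0.0331, and log2 fold change 0.40, adjusted p = 0.047). Pccb of the same metabolism was among the 7 that fell (log2 fold change -0.41, adjusted p = 0.0298).

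Of 13 genes of proline, lysine, glutamate and asparagine metabolism 3 fell, Gcdh of lysine breakdown (log2 fold change -0.65, adjusted p = 0.0168), Aldh7a1 of the same route (log2 fold change -0.47, adjusted p = 0.0269) and Oat, the ornithine aminotransferase (log2 fold change -0.73, adjusted p = 0.0392). Dhtkd1, whose enzyme acts on ketoadipate downstream of Aass in lysine breakdown, rose to 112 ± 34.6 CPM in flox/flox against 49 ± 6.63 CPM in wt/wt (SD, n = 3 each) (log2 fold change 1.11, adjusted p = 0.0148). Of 8 further aromatic genes 3 fell, Qdpr and Pcbd1, which recycle the tetrahydrobiopterin cofactor of phenylalanine hydroxylase, and Aadat, the aminoadipate aminotransferase (log2 fold change -0.90, adjusted p = 0.0134, log2 fold change -0.61, adjusted p = 0.0435 and log2 fold change -0.59, adjusted p = 0.047). Of 7 further glycine and serine genes 2 fell, Gcat of threonine breakdown (log2 fold change -0.90, adjusted p = 0.00818) and the serine racemase Srr (log2 fold change -0.60, adjusted p = 0.0154). All adjusted p are from edgeR.

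Of 11 regulators of amino acid catabolism 1 was called in flox/flox against wt/wt, higher, where 14.5% of all genes were called higher. Gcgr, the glucagon receptor, had 223, 251 and 215 CPM in the flox/flox libraries, 216 and 245 CPM in wt/flox and 171, 149.8 and 136 CPM in wt/wt, and all libraries with a floxed allele were above the wt/wt libraries (edgeR log2 fold change 0.63, adjusted p = 0.0165). In wt/flox against wt/wt Gcgr was also called higher (log2 fold change 0.57, adjusted p = 0.0457 by edgeR), where 7.57% of all genes were called higher. Another 1 of the 11 regulators was called lower in that contrast, where 6.90% of all genes were called lower.

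Within a single batch mark, flox/flox against wt/flox asks what the second floxed allele adds. No gene of the 39 was called by edgeR, limma-voom or DESeq2 in this contrast, and none of the 14728 genes tested by edgeR (0% higher and 0% lower; 525 had an unadjusted p under 0.05, and DESeq2 called 16 genes). The median log2 fold change of the 39 genes was -0.18, with 30 of 39 values below 0, against 0.00 over all genes. The smallest p was that of Kynu, whose flox/flox libraries (255 CPM at most) lay below both wt/flox libraries (314 CPM at least; log2 fold change -0.48 ± 0.18 SE, adjusted p = 0.994 by edgeR). It was the only gene of the list with an unadjusted p under 0.05.

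All flox/flox libraries lay below both wt/flox libraries for 7 genes (Hgd, Kynu, Haao, Ftcd, Got2, Gnmt and Ahcy) and wholly above for Prodh, against 13.1% and 14.2% of all genes tested. The 39 standard errors ranged up to 0.51 on the log2 scale, with 2 libraries in wt/flox. For the genes with the smallest p in the other amino acid groups the values were log2 fold change -0.38 ± 0.21 SE, adjusted p = 0.994 by edgeR for Ahcy, 0.35 (SE 0.28) for Prodh, -0.27 (SE 0.18) for Amt, -0.25 (SE 0.20) for Ivd and 0.07 (SE 0.17) for Ftcd. By this test no difference between flox/flox and wt/flox was detected with these libraries, which does not show that there was none.

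The contrast of wt/flox with wt/wt shares the wt/wt libraries, and so its batch, with the first contrast. Aass was the only gene called, higher at 695 ± 70.0 CPM in wt/flox (SD, n = 2) against 330.3 ± 35.6 CPM in wt/wt (n = 3) (fitted 2.01-fold; log2 fold change 1.00 ± 0.22 SE, adjusted p = 0.0287 by edgeR), against 7.57% higher and 6.90% lower of all genes tested. No gene of the whole table was called, Aass included, when either wt/flox library or wt/wt replicate 1 or 2 was left out (adjusted p of Aass over the leave-one-out fits 0.0179 to 0.131). The same held with a block for the replicate number and the sex term in the fit. With all libraries and no block, edgeR called 0 of the 39 genes lower. An unadjusted p under 0.05 in either direction was found for 11 of 39 (28.2%, against 32.8% of all genes tested). Limma-voom also called Aass alone, and DESeq2 called 3 higher and 2 lower. The wt/flox libraries lay above the wt/wt libraries for 6 genes and below for 12, against 25.8% and 29.3% of all genes.

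The fitted values of the 2 contrasts with wt/wt can be set side by side for the 13 called genes. For Aass they were 0.79 in flox/flox and 1.00 in wt/flox, and for Prodh2 0.54 and 0.55. For the 11 genes that fell they lay between -0.87 and -0.44 in flox/flox and between -0.74 and -0.27 in wt/flox. Kynu and Gldc had 0.07 and 0.34 in flox/flox, and 0.54 and 0.53 in wt/flox, without being called in either.

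Of 5 pairs of related genes, most of them coding for enzymes of the same reaction, the ratio within each pair was taken per library from levels per kilobase of exon. Sds exceeded Sdsl by a log2 ratio of 5.35, 4.68 and 5.06 in flox/flox, 5.21 and 4.62 in wt/flox and 3.99, 3.22 and 4.41 in wt/wt. The flox/flox libraries were above the wt/wt libraries, a difference of 1.15 between the means of 5.03 ± 0.34 in flox/flox and 3.87 ± 0.60 in wt/wt (SD, n = 3 each; exact permutation test, two-sided p = 0.1, the smallest that 3 against 3 allows, 0.5 adjusted over 5 pairs). The log2 ratio of Shmt1 over Shmt2 averaged -0.06 ± 0.35 in flox/flox and -0.55 ± 0.18 in wt/wt (exact p = 0.2), and the pairs Got1 and Got2, Gpt and Gpt2, and Prodh and Prodh2 had an exact p of 0.6, 0.4 and 1. No pair can pass the threshold in this design.

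Above 500 bases of exon, shorter genes had lower fold changes in flox/flox against wt/wt across the transcriptome, and the 300 genes below that length had a median of 0.97. The median log2 fold change was -0.42 over 1714 genes with 1000 to 2000 bases of exon, -0.23 over 2237 genes with 2000 to 3000 bases, 0.03 over 3337 genes with 4000 to 6000 bases and 0.30 over 2390 genes above 8000 bases. The 39 catabolic genes had 1206 (Gnmt) to 7797 (Prodh) bases of exon, with a median of 3192. Of the 7 in the class of 1000 to 2000 bases 4 fell (Gnmt, Sdsl, Gcsh and Cdo1), where 29.6% of all genes of that class were called lower. Of the 8 in the class of 4000 to 6000 bases 3 fell (Haao, Got2 and Gstz1), where 10.25% of all genes were called lower. In the other classes that hold catabolic genes, 3 of 11 fell at 2000 to 3000 bases (22.1% of all genes), 1 of 9 at 3000 to 4000 bases (16.2%) and 0 of 4 at 6000 to 8000 bases (7.35%). Removing the trend left 3 higher and 5 lower calls, of which Aass, Prodh2, Gstz1, Haao and Got2 were shared with the 13, while Bckdhb (higher), Bhmt and Cbs (lower) were added. The part of fragment size or RNA quality in this trend was not tested.

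**Figure D3:**
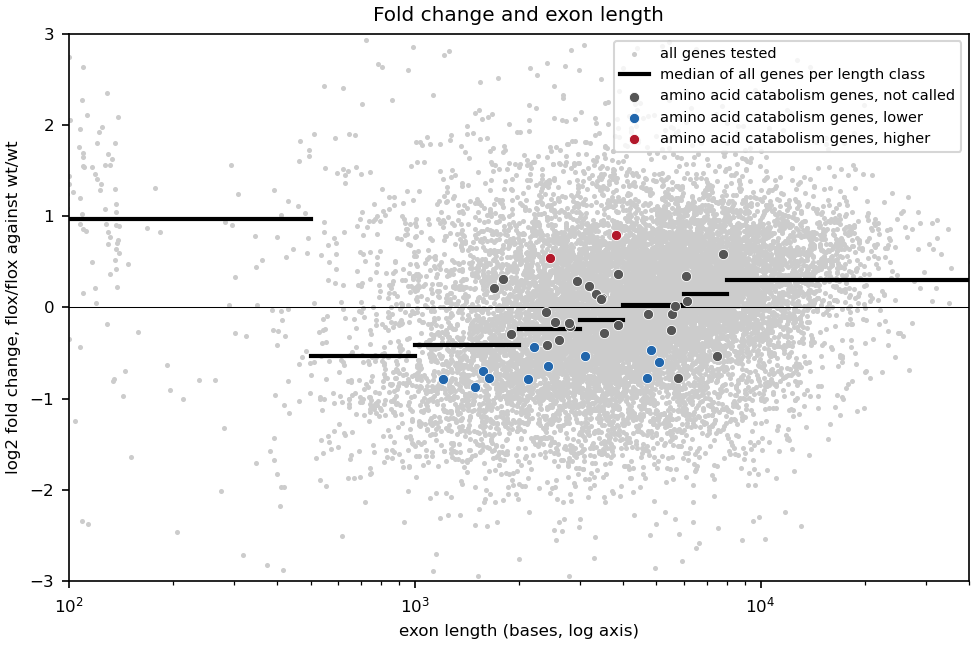
Log2 fold change in flox/flox against wt/wt (linear axis, a few genes lie outside it) against total exon length in bases (log axis) for all genes tested with a length (grey) and the 39 amino acid catabolism genes (red higher, blue lower, dark grey not called), with the median of all genes per length class as a black line. The median climbs from -0.42 at 1000 to 2000 bases to 0.30 above 8000 bases, and 4 of the 11 lower genes have under 2000 bases.

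Per kilobase of exon the catabolic genes were among the abundant transcripts of these cells. Averaged over the 8 libraries their level per kilobase lay between the 70.6th percentile (Sdsl) and the 99.7th (Tat) of 14407 tested genes with a length, with a median at the 96.7th. Tat averaged 811 CPM per kilobase in flox/flox, 1070.3 in wt/flox and 859 in wt/wt. Next came Gnmt (524, 684 and 924 CPM per kilobase in the same order) and Mat1a (714, 675 and 623). Sdsl, at 3.83 in flox/flox, 5.21 in wt/flox and 7.68 in wt/wt, was the lowest.

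The 39 genes together took 1.78%, 1.51% and 1.79% of the sense gene reads in flox/flox, 2.09% and 1.57% in wt/flox, and 2.45%, 2.36% and 2.63% in wt/wt. All flox/flox shares lay below all wt/wt shares. After TMM scaling the sum was 19381, 17664 and 17933 CPM in flox/flox, 23620 and 16932 CPM in wt/flox and 20639, 20770 and 22859 CPM in wt/wt, so scaling narrowed the gap. Alb alone had 98250, 171700 and 117700 CPM in flox/flox, 97620 and 86650 CPM in wt/flox and 63590, 76430 and 79950 CPM in wt/wt, and its part in the lower share was not tested. By amino acid, the summed sulfur genes separated flox/flox (7229 to 8057 CPM) from wt/wt (9198 to 11513 CPM), and the other 5 sums overlapped between those groups.

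**Figure D4:**
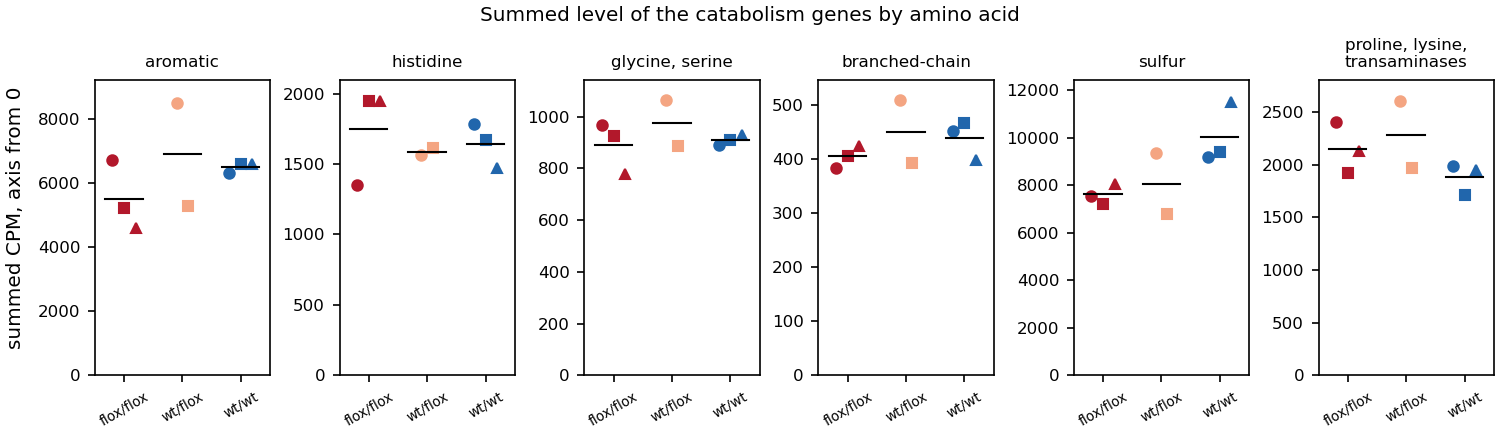
Summed CPM of the catabolism genes of each amino acid group by library (circle, square and triangle for replicates 1, 2 and 3) in flox/flox, wt/flox and wt/wt, with a line at the group mean and axes from 0. The sulfur panel is the only panel without overlap of flox/flox and wt/wt, at 7229 to 8057 against 9198 to 11513 CPM.

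Several genes varied widely over the libraries, within genotypes as well as between them. The highest library exceeded the lowest by more than 2-fold for 16 of the 39 genes (41%), against 40% of 9247 genes with a mean of at least 4 CPM. The widest ranges were 3.05-fold for Sdsl, 2.76-fold for Bhmt, 2.73-fold for Tat and 2.70-fold for Sds. Tat, Sds, Tdo2, Got1 and Aass were highest in wt/flox replicate 1, and Gpt2 in flox/flox replicate 1, both 11-week-old mice that are male by transcripts. Pck1, the gluconeogenic enzyme that glucagon and fasting induce, was also highest in replicate 1 of flox/flox and of wt/flox, at 4018, 2594 and 2109 CPM in the flox/flox libraries, 4031 and 2405 CPM in wt/flox and 1829, 1945 and 3851 CPM in wt/wt. Ppargc1a, a coactivator of the fasting response, had 50.8, 20.6 and 22.4 CPM in the flox/flox libraries, 51.3 and 24.8 CPM in wt/flox and 10.7, 15.7 and 23.1 CPM in wt/wt. The wt/wt replicate 1 mouse, also 11 weeks old and male, had the lowest Pck1 and Ppargc1a of the 8 libraries and the lowest Tat of wt/wt. Cebpb was highest in wt/wt replicate 3, a 7-week-old female, at 260.5 CPM. It had 259.9 CPM in wt/flox replicate 1 and 205.2 CPM in flox/flox replicate 1. These genes were named after their values were seen, and the feeding state of the mice is not given in the labels.

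**Figure D5:**
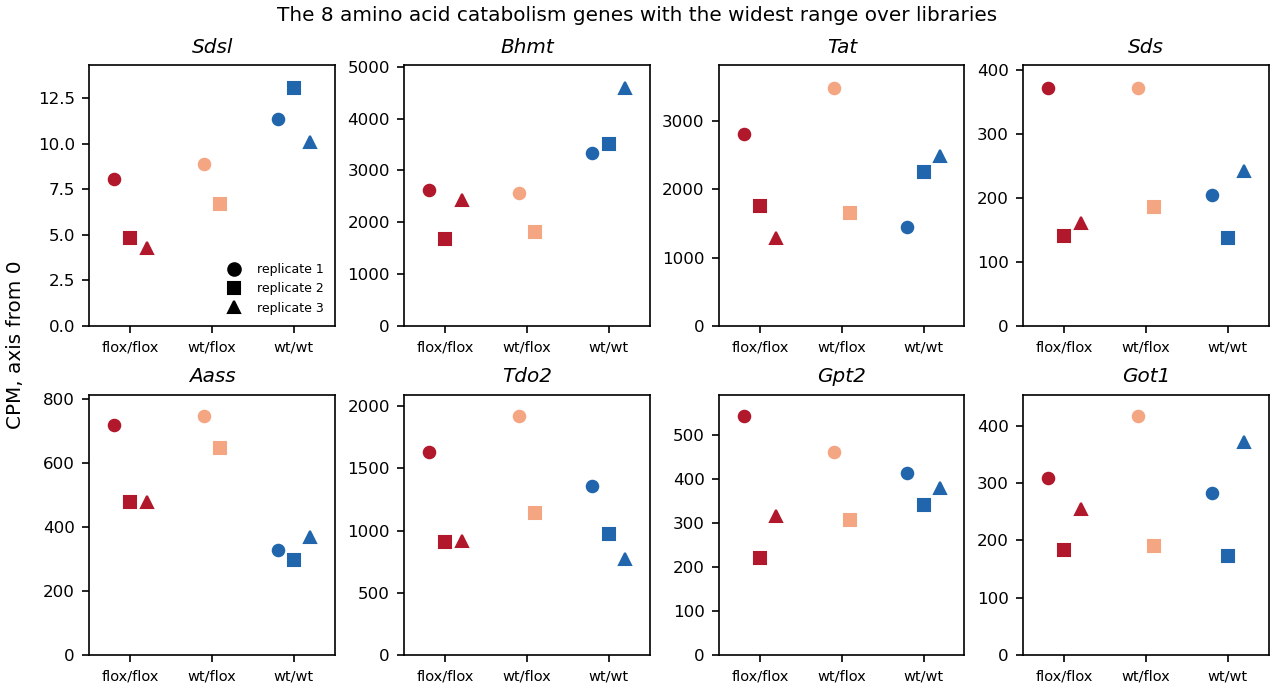
CPM by library of the 8 amino acid catabolism genes with the widest range, in flox/flox, wt/flox and wt/wt, with replicates 1, 2 and 3 as circle, square and triangle and axes from 0. Tat, Sds, Tdo2 and Got1 reach their highest value in wt/flox replicate 1, and Sdsl and Bhmt are highest in wt/wt.

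Between females and males by transcripts none of the 39 genes was called, against 0.543% higher and 0.435% lower of all genes. Of all genes tested 14.5% had an unadjusted edgeR p under 0.05, as did 4 of the 39 (10.3%). These 4 were Tdo2 (log2 difference female minus male -0.72), Sdsl (-0.55), Kmo (-0.37) and Prodh2 (0.40). Flox/flox replicates 2 and 3 and wt/wt replicate 3 are the only female libraries, and no wt/flox library is female. Genotype and sex are therefore partly entangled, and a fitted fold change need not equal the quotient of the means, as for Tdo2.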

How the data were processed

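Liver cells of 8 mice were sequenced, 1 library each. The labels' protocols describe collagenase perfusion, a Percoll gradient that keeps live cells, depletion of ribosomal RNA and strand-specific libraries. The authors deposited raw counts per gene symbol, and the file headers give sense and antisense reads a column each. GRCm38 (mm10) and DESeq2 are named in the submitters' processing notes. Which aligner, counting program and annotation were used is not given in the sources used here. The 5 rows of each file that name no gene were left out. Reads in no gene made up 34.5% to 40.0% of sense reads in flox/flox, 31.65% to 37.3% in wt/flox and 22.2% to 28.1% in wt/wt. Both groups with a floxed allele lay above wt/wt, and the part of this in the fold changes was not tested. Ambiguous reads made up 0.317% to 0.668%.

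A single edgeR fit of the sense counts in all 8 libraries was used (version 4.0.16, R 4.3.3, quasi-likelihood F test), with TMM factors, filterByExpr on genotype, terms for genotype and sex by transcripts, and Benjamini-Hochberg adjustment at 0.05, two-sided. Fold changes are those of the fit. Coordinates and exon lengths (all exons merged) are from GENCODE M21 on GRCm38, where 24366 of 25229 symbols (96.6%) matched. Near-copies are genes whose transcripts share a near-identical stretch with a catabolic gene. The search covered both strands and the strand of a match was not kept, so matches to the opposite strand were not told apart. Every pair of libraries differed by more than sampling noise.

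The 39 genes, the gene lists, the covariate and the alternatives were chosen with earlier results of these data known. Each gene is given per library where it was called in a genotype contrast or had the smallest p of its amino acid group in flox/flox against wt/wt or wt/flox. Of each pathway list up to 4 called genes with the smallest adjusted p in flox/flox against wt/wt are named, and further genes named beside them were chosen after their values were seen. The alternatives were RLE, upper-quartile or no scaling factors, DESeq2 1.42.0, limma-voom (limma 3.58.1), no filter or a minimum mean of 1 CPM, no or labelled sex, a replicate block, the 2 groups alone, each library left out, both libraries of contradicted sex left out, the exon-length trend removed, and antisense reads added. The fits were tested on simulated counts.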

Additional observations from a re-analysis of the deposited data

Results flagged for a closer look

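Antisense reads, which no comparison above uses, lay above every wt/wt library in all 3 flox/flox libraries for 5 of the 38 catabolic genes with a mean antisense level of at least 1 CPM in flox/flox. All 5 also had a sense log2 fold change above 0. The mean antisense level in flox/flox was 33.85 CPM for Ftcd (30.0 to 36.9 CPM in flox/flox against 22.4 to 29.25 CPM in wt/wt), 28.48 CPM for Prodh (22.3 to 36.8 against 12.6 to 14.5 CPM), 24.33 CPM for Prodh2 (18.0 to 30.6 against 11.8 to 12.8 CPM), 36.28 CPM for Gpt (28.3 to 40.8 against 19.9 to 26.6 CPM) and 22.97 CPM for Aass (19.0 to 29.5 against 12.8 to 16.3 CPM). The same held for 2274 of 6961 genes (32.7%) with that minimum, and the difference in share was not tested. This search was for rises alone. In Hpd, Hgd, Gstz1, Fah, Haao, Shmt2, Got2, Gnmt, Bhmt and Cdo1 all flox/flox antisense levels lay below all wt/wt levels. For Hpd these were 71.4 to 99.4 CPM in flox/flox against 108.6 to 130.5 CPM in wt/wt. Their sense log2 fold changes were below 0, and the share of all genes that lay below was not counted. Antisense reads made up 2.35% to 12.6% of the reads over a catabolic gene in any library.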

How the results depend on the processing

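In flox/flox against wt/wt, the count of higher genes (2) was 1 with RLE or upper-quartile factors or the 2 groups alone, 0 with library size alone, with a replicate block and the sex term, or without both libraries of contradicted sex, and 4 with a replicate block without the sex term. The count of lower genes (11) was 5 with the exon-length trend removed, 20 with library size alone, 2 with a replicate block and the sex term, and 0 without both libraries of contradicted sex. Leaving out 1 library gave 0 to 1 higher and 2 to 10 lower. In wt/flox against wt/wt, the count of higher genes (1) was 3 with DESeq2 or the 2 groups alone, 2 without both libraries of contradicted sex, 0 with library size alone or a replicate block and the sex term, and 0 to 2 with 1 library left out. The count of lower genes (0) was 1 with labelled sex, 2 with DESeq2, with antisense reads added or without both libraries of contradicted sex, 3 with a mean CPM of at least 1, upper-quartile factors or the 2 groups alone, 15 with library size alone, and 0 to 1 with 1 library left out. In flox/flox against wt/flox no gene of the 39 was called under any of these alternatives. No result reversed its direction while called. With library size alone 691 genes of the whole table were called higher and 4159 lower in flox/flox against wt/wt, against 2139 and 2143 with TMM. Leaving libraries out gave 801 and 1010 without flox/flox replicate 1, 1168 and 1292 without wt/wt replicate 2, 1351 and 1234 without wt/wt replicate 3, and 356 and 698 without both libraries of contradicted sex. In wt/flox against wt/wt 1115 genes of the whole table were called higher and 1016 lower, against 488 and 324 with the exon-length trend removed, 635 and 665 with labelled sex, 356 and 3551 with library size alone (median log2 fold change -0.40), and 669 and 770 with a replicate block without the sex term. In that contrast no gene of the table was called with a replicate block and the sex term, or with any of wt/flox replicates 1 and 2 and wt/wt replicates 1 and 2 left out. The cause was not tested in any of these, beyond the fewer samples in fits that leave libraries out.

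The replicate numbers were not taken to pair the samples, since the labels tie them only to age: deviations of same-numbered flox/flox and wt/wt libraries from their group means correlated at 0.29, 0.0185 and 0.45, and wt/wt replicate 2 correlated best with flox/flox replicate 1 (0.34). With a replicate block 792 genes of the whole table were called higher and 994 lower with the sex term, and 2291 and 2503 without it. The lowest count of a catabolic gene in any library was 472 reads (Sdsl), and the number of mice, 2 or 3 per group, limits the precision.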

Other observations

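Between positions -100 and -40, a stretch chosen after the positions were seen, 15 of the 31 promoter windows of catabolic genes (48.4%) held CCAAT on either strand, against 4037 of 27025 windows (14.9%). Those of Gnmt and Gstz1, which fell, begin at -62, and that of Aass, which rose, begins at -61. The median GC content was 57% in the 31 windows and 52.7% in all windows, and its part in the difference was not tested. The 27025 windows were not limited to genes that passed the filter on low counts.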
